A study of Mus musculus with 6 samples.

Results

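ATP-binding cassette (ABC) genes were examined in mouse kidney epithelial cells that had either stayed attached or been held in suspension for 4 h. Members were the rows of the deposited expression table that name 1 gene whose symbol is Abc, then a letter from a to g, then a digit. There were 49 such genes among 37757 rows, of which 29 reached 1 FPKM (fragments scaled by transcript length and by library size) in at least 1 condition, and these are described in most detail. Symbols chose the members and no measured value did, apart from that minimum: Abcc8 stood just inside it at 1.26 FPKM in suspension and Abcc2 just outside at 0.713 FPKM (authors' deposited table).

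The cells came from kidneys of C57/Bl6J mice aged 8 weeks, of the genotype Bim-/- Bmf-/- in all libraries of both conditions, so no cells with intact Bim or Bmf entered the comparison. Bim and Bmf are proteins that promote apoptosis. There were 3 attached libraries and 3 suspended ones, which the titles call Anoikis after the death of cells that lose anchorage. The labels do not say if each library had its own culture or animal, and the deposited p-values may therefore measure technical spread only. The table holds 1 pooled FPKM per gene and condition and the result of the authors' own test, so neither values per library nor their spread were analysed here. The last letter of each column name, A or S, was taken to mean attached or suspended.

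ABC proteins bind and hydrolyse ATP in a conserved cassette and most use it to move a substrate across a membrane. The ABCA and ABCG subfamilies are known mainly for lipids and sterols, ABCB and ABCC for drugs, peptides, conjugated anions and chloride or potassium channel function, and ABCD for fatty acids entering peroxisomes. ABCE and ABCF proteins have the cassette without membrane-spanning domains and act on ribosomes. In kidney tubules, efflux pumps of the ABCB, ABCC and ABCG subfamilies pass drugs, urate and conjugated anions into the urine.

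The pair Abcb1a and Abcb1b encodes P-glycoprotein, a pump for hydrophobic drugs, and needs its sequences shown first because a fragment from the same part of either gene may fit both. Their coding sequences in GENCODE M21 (GRCm38), each 3828 bases long, were 88.3% identical over 3816 aligned bases, and 22.2% of the 50-base words of Abcb1a also stand in another member, most of them in Abcb1b. The longest run without a difference was 338 bases, whose first 60 bases run from coding position 1357 in Abcb1a and 1366 in Abcb1b.
Abcb1a and Abcb1b, shared: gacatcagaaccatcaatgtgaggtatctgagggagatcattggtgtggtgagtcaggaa
The window of 60 bases that differed most, with 25 differing bases in capitals, began at coding position 1913 in Abcb1a and 1922 in Abcb1b.
Abcb1a: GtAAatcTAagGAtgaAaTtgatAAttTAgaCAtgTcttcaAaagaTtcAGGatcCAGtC
Abcb1b: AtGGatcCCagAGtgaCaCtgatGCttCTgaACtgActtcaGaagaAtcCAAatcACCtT
How the authors assigned fragments from shared stretches is not given in the sources used here, so the levels of both genes are uncertain to that extent. The same holds to a smaller degree for Abcb4, Abca3 and Abca8b, which share 3.65%, 2.86% and 2.18% of their 50-base words with another member, and for Abcc10, whose exons overlap those of Dlk2 on the opposite strand. Exons of Abca3, Abca8b, Abcb1a, Abcb1b, Abcb6 and Abcb9 overlap genes that GENCODE lists as non-coding or unclassified, most of them on the opposite strand, and whether strand was used in counting is not given in the sources used here.

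Promoters are shown for a pump gene listed at 0 in attached cells and called higher in suspension, Abcc2, and for a pair of ribosome-associated genes that fell, Abce1 and Abcf1. Each line is the 250 bases before the RefSeq start (GRCm38.p6), read along the gene. For Abcc2 (chr19:43782058-43782307, plus strand) and Abce1 (chr8:79711741-79711990, minus strand) capitals mark the core of the antioxidant response element, the site of NRF2. For Abcf1 (chr17:35969751-35970000, minus strand) they mark the E-box CACGTG, a site of several basic helix-loop-helix factors.
Abcc2: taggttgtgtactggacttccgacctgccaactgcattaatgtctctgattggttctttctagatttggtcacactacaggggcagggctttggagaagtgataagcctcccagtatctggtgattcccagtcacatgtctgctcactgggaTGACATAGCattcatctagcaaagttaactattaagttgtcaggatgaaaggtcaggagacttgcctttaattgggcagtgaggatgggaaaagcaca
Abce1: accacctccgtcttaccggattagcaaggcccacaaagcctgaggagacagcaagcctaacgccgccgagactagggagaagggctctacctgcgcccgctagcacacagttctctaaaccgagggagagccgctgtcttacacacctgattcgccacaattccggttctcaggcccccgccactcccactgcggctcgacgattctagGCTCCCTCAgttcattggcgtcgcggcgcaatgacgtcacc
Abcf1: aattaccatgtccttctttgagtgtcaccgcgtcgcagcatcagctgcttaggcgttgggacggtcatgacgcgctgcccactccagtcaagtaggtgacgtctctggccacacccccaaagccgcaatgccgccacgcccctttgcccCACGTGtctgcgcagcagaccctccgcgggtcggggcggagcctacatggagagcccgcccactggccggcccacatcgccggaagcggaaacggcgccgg
The antioxidant core was searched as TGACNNNGC or TGAGNNNGC on both strands of windows of 300 bases, from 250 before the start to 50 after it. It stood in 10 of the 37 members with a promoter in the table (27.0%), beside 27.8% of all 32851 promoters. CACGTG stood in 6 of those 37 members (16.2%), beside 7.15% of all promoters. The LXR response element, searched in its direct-repeat form, stood in 0 of those members and in 5 of all promoters, or 0.0152%. Shares of members count genes, some with several promoters, while those of all promoters count promoters. Counted by promoter, the antioxidant core stood in 12 of 44 member promoters and CACGTG in 6 of 44. The promoters shown all hold a match, while those of Abcf2 and Abcf3, which also fell, held neither of these motifs. These matches are descriptions of letters, and since the table starts Abcb1a well upstream of the deposited row its promoter is not shown.

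Of the 49 members, 30 were tested, and 22 of these were called at q below 0.05 in the authors' deposited table, 13 higher and 9 lower in suspension. The background share of called rows was 51% of all tested rows, 24.7% higher and 26.3% lower. With calls also at least 2-fold, 10 members were higher and 2 lower, beside 12.4% and 7.12% of all tested rows. Among the 29 members of at least 1 FPKM, 12 were higher, 9 lower and 8 not called in the authors' deposited table, where 54.3% of all tested rows past the same minimum were called, 24.8% higher and 29.5% lower. The median log2 fold change of the 29 was 0.03 in the authors' deposited table, beside -0.08 over all tested rows past the minimum. Over rows of at least 1 FPKM in both conditions the median was -0.11. Taken relative to it, every called member kept its direction and Abca2, which was not called, changed sign.

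Direction went with level. Of the 10 members with a mean under 5 FPKM, 8 were higher and 0 lower in the authors' deposited table (0 lower at an unadjusted p under 0.05 too), where 30.8% of tested rows of that level and at least 1 FPKM in either condition were higher and 16.7% lower. Of the 19 with a mean of 5 FPKM or more, 4 were higher, 9 lower and 6 not called in the authors' deposited table, where 22.7% of tested rows of that level were higher and 34% lower. The first count is partly fixed by the minimum: 7 members, Abca1, Abca5, Abca8b, Abcb1a, Abcb9, Abcc3 and Abcc8, passed 1 FPKM in suspension alone and so had to be higher there. All 7 were called, and of all tested rows that passed in suspension alone 69.5% were called.

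**Figure D1:**
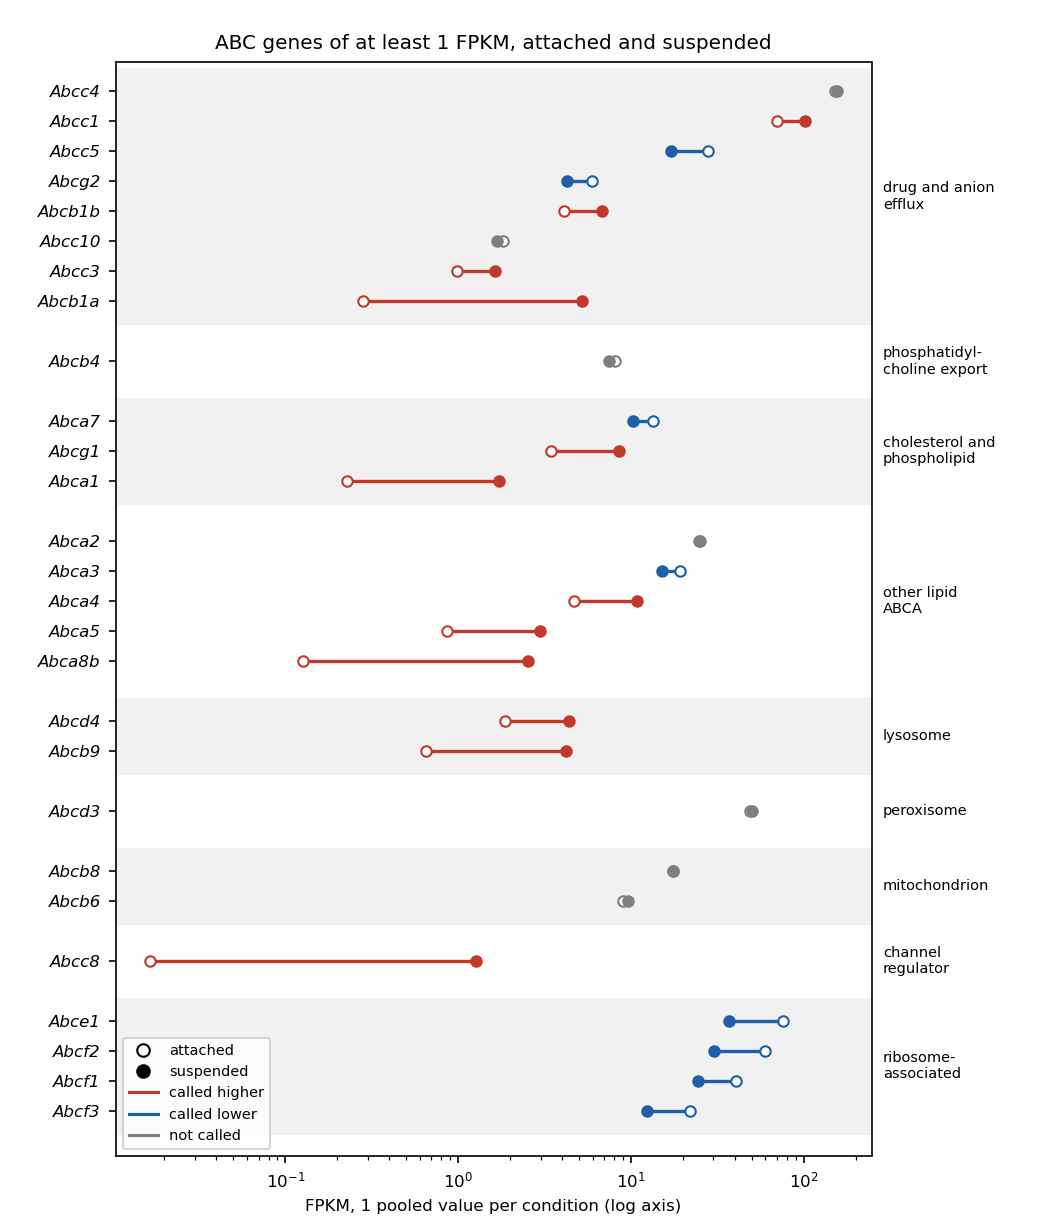
FPKM on a log axis for 27 of the 29 ABC genes of at least 1 FPKM, grouped by role, with 1 pooled value for each condition, taken from the authors' deposited table (attached as open and suspended as filled symbols), joined by a line in the colour of the call. The 4 ribosome-associated genes all moved left, while Abcb1a went from 0.281 to 5.22 FPKM and Abcc4 stayed near 150 FPKM, at 152 and 156.

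Among the pumps for drugs and organic anions, 4 of the 8 genes of at least 1 FPKM were higher, 2 lower and 2 not called in the authors' deposited table. Past the same minimum, 24.8% of all tested rows were higher and 29.5% lower. Abcb1a and Abcc3 passed the minimum in suspension alone, so the count of higher pumps is partly fixed by it. A deposited q of 0.000185, the smallest in the table, holds for every called gene below unless another is given. Abcc4 (MRP4, chromosome 14, positions 118482692 to 118706219 of mm10, as for all positions below), which exports cyclic nucleotides, prostaglandins and urate, was the most abundant member in both conditions, at 152 FPKM attached and 156 suspended (q = 0.819, authors' deposited table). Under a normal approximation the deposited p implies a 95% interval of 0.887 to 1.18 for its ratio of suspended to attached. Abcc1 (MRP1, chromosome 16, positions 14361558 to 14475737), an exporter of glutathione and its conjugates, rose 1.45-fold, from 69.9 to 101 FPKM (authors' deposited table). Since its p lies at the smallest value of the table, only an upper limit of 0.13 can be given for the standard error of its log2 fold change. It moved from the third to the second most abundant member.

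Other pumps of conjugated anions were far less abundant or went the other way. Abcc2 (MRP2, chromosome 19, positions 43782192 to 43837951), the apical counterpart of Abcc1 in proximal tubule and liver, was listed at 0 FPKM attached and 0.713 FPKM suspended and was called higher in the authors' deposited table. No fold can be given against the listed 0. Abcc3 (MRP3, chromosome 11, positions 94343295 to 94392997), a basolateral exporter of glucuronides, went from 0.979 to 1.64 FPKM (q = 0.0395, authors' deposited table), with an implied 95% interval of 1.09 to 2.57 for the ratio, and with a pseudocount of 1 FPKM its log2 fold change was 0.41 in place of 0.74. Abcc5 (MRP5, chromosome 16, positions 20331303 to 20426394), which exports cyclic nucleotides, fell 1.62-fold, from 27.8 to 17.1 FPKM (q = 0.00227, authors' deposited table), with an implied interval of 0.465 to 0.816 for the ratio. Abcc10 (MRP7, chromosome 17, positions 46297421 to 46328352) was not called, at 1.83 and 1.67 FPKM (q = 0.710, authors' deposited table), and its implied interval ran from 0.642 to 1.30.

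The P-glycoprotein genes, which are neighbours on chromosome 5, both rose. Abcb1a (positions 8660077 to 8748575) went from 0.281 to 5.22 FPKM, or 18.6-fold (authors' deposited table), with a standard error of at most 1.04 on the log2 scale. Abcb1b (positions 8773577 to 8866314) went from 4.08 to 6.76 FPKM, or 1.66-fold (authors' deposited table). Abcb1b was thus well above Abcb1a in attached cells and near it in suspended ones, within the uncertainty from their shared bases. With a pseudocount of 1 FPKM the log2 fold change of Abcb1a shrank from 4.22 to 2.28, and that of Abcb1b from 0.73 to 0.61. Abcb4 (positions 8893721 to 8959225), the next gene along, which flops phosphatidylcholine into bile, was not called at 8.05 and 7.46 FPKM (q = 0.507, authors' deposited table), with an implied interval of 0.780 to 1.10. Abcg2 (BCRP, chromosome 6, positions 58584523 to 58692869), a pump for urate and drugs, fell 1.40-fold, from 5.93 to 4.24 FPKM (q = 0.0346, authors' deposited table), with an implied interval of 0.545 to 0.939. The calls of Abcc3, Abcg2 and Abca3 ended at a q threshold of 0.01.

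Genes that supply or regulate these pumps were counted by list. A list of genes for glutathione and its conjugates also counted Nqo1, a quinone reductase. Of the 10 tested genes of the list, 9 were higher and 0 lower (0 at an unadjusted p under 0.05) in the authors' deposited table. The median log2 fold change of the list was 2.02, beside -0.04 over all tested rows. Gss, which makes glutathione, went from 20.4 to 88.0 FPKM (authors' deposited table). Gsta4, a transferase that forms glutathione conjugates, went from 42.7 to 221 FPKM (authors' deposited table). This list was chosen with a rise of such genes in these samples known, so it is not independent evidence. Of the receptors and factors that regulate drug efflux genes, 3 of 6 tested were higher and 1 lower in the authors' deposited table, with a median of 0.56. Beside both lists, 24.7% of all tested rows were higher and 26.3% lower.

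Nfe2l2, which encodes NRF2, rose from 140 to 204 FPKM (authors' deposited table). Ahr, the aryl hydrocarbon receptor, rose from 3.95 to 12.0 FPKM, and its partner Arnt from 10.2 to 16.1 FPKM (q = 0.000355, authors' deposited table). Nr1h4, the bile acid receptor FXR, fell from 1.56 to 0.926 FPKM (q = 0.00563, authors' deposited table). The xenobiotic receptors Nr1i2 and Nr1i3 were not tested, at 0.112 FPKM or less in both conditions of the authors' deposited table. Of 12 carriers for uptake and extrusion of organic ions in the kidney, 7 were under 1 FPKM, and Slc22a6, the main organic anion uptake carrier of proximal tubule, was listed at 0 in both conditions of the authors' deposited table. Of the 5 tested, Slc22a4 (3.80 to 11.5 FPKM) was higher, Slco3a1 (36.3 to 23.1 FPKM) lower and 3 not called in the authors' deposited table, with a median of 0.06. With 24.7% of all tested rows higher and 26.3% lower, these counts do not set the carriers apart.

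Genes of cholesterol and phospholipid export moved in both directions. Abca1 (chromosome 4, positions 53030787 to 53159895), which loads cholesterol and phospholipid onto apolipoprotein A-I, rose 7.59-fold, from 0.227 to 1.72 FPKM (authors' deposited table). Abcg1 (chromosome 17, positions 31057698 to 31115777), which passes sterol on to lipoprotein particles, rose 2.47-fold, from 3.42 to 8.47 FPKM (authors' deposited table). Abca7 (chromosome 10, positions 79996494 to 80015572), a phospholipid exporter linked to phagocytosis, fell 1.31-fold, from 13.5 to 10.3 FPKM (q = 0.00157, authors' deposited table), with an implied interval of 0.655 to 0.889 for the ratio. Abca1 remained the scarcest of the 3 in suspension, and with a pseudocount of 1 FPKM its log2 fold change was 1.15 in place of 2.92.

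Abca1 and Abcg1 are also prominent in macrophages, and leukocyte markers moved with them. Of 6 leukocyte markers matched, 3 were tested and all 3 were higher in the authors' deposited table: Ptprc (1.42 to 12.4 FPKM), Cd68 (23.4 to 34.9 FPKM) and Csf1r (0.729 to 3.25 FPKM, q = 0.0271). The summed FPKM of the list were 25.6 attached and 50.7 suspended, while the macrophage marker Emr1 was listed at 0 attached and 0.00328 suspended in the authors' deposited table. Their part in the ABC results was not tested, and in bulk samples a change in the number of cells of a type and a change in RNA per cell cannot be told apart.

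Of a list around LXR, the sterol receptor that drives Abca1 and Abcg1, 5 of 13 tested genes were called, 3 higher and 2 lower, in the authors' deposited table, where 51% of all tested rows were called. Its median log2 fold change was 0.11, beside -0.04 over all tested rows. Rxra, the partner receptor of LXR, rose from 13.6 to 32.0 FPKM (authors' deposited table). Npc1 and Npc2, which move cholesterol out of lysosomes, rose from 11.9 to 29.5 and from 46.0 to 60.1 FPKM (q = 0.000518 for Npc2, authors' deposited table). Lpcat3, a phospholipid remodelling enzyme and an LXR target, fell from 42.0 to 27.0 FPKM (authors' deposited table). The other listed gene called lower was Arl4c (52.2 to 41.3 FPKM, q = 0.00361, authors' deposited table). Neither LXR gene was called: Nr1h2 stood at 44.7 and 53.1 FPKM (q = 0.0952, authors' deposited table). Nr1h3 stood at 0.258 and 0.597 FPKM (q = 0.0869, authors' deposited table). Srebf1 and Mylip, also listed, were not called (q = 0.0884 and 0.917, authors' deposited table).

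Of the other lipid transporters of the ABCA subfamily, 3 of 5 were higher, 1 lower and 1 not called in the authors' deposited table. Past the minimum of 1 FPKM, 24.8% of all tested rows were higher and 29.5% lower. The count of higher genes is partly fixed by that minimum, since Abca5 and Abca8b passed it in suspension alone. Abca4 (chromosome 3, positions 122044443 to 122180061), known for clearing retinoid lipids in photoreceptors, rose 2.31-fold, from 4.69 to 10.8 FPKM (authors' deposited table). Abca5 (chromosome 11, positions 110269369 to 110337716), an intracellular member of the lysosome and endosome, rose 3.44-fold, from 0.867 to 2.98 FPKM (authors' deposited table). Abca8b (positions 109932190 to 109995845), at the other end of the same cluster of genes, rose 20.2-fold, from 0.127 to 2.55 FPKM (authors' deposited table). With a pseudocount of 1 FPKM the log2 fold change shrank from 1.78 to 1.09 for Abca5 and from 4.33 to 1.66 for Abca8b.

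The genes between them, Abca6, Abca9 and Abca8a, were not tested and lay at 0.155 FPKM or less in the authors' deposited table. Abca8a, whose coding sequence is 75.3% identical to that of Abca8b, was listed at 0 FPKM attached and 0.00397 FPKM suspended (authors' deposited table). Abca3 (chromosome 17, positions 24351950 to 24414542), which fills the lamellar bodies of lung cells with surfactant lipid, fell 1.27-fold, from 19.2 to 15.1 FPKM (q = 0.0107, authors' deposited table), with an implied interval of 0.665 to 0.926. Abca2 (chromosome 2, positions 25428703 to 25448540), an endosomal and lysosomal member, was not called at 25.0 and 24.7 FPKM (q = 0.939, authors' deposited table), with an implied interval of 0.791 to 1.23 for the ratio.

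**Figure D2:**
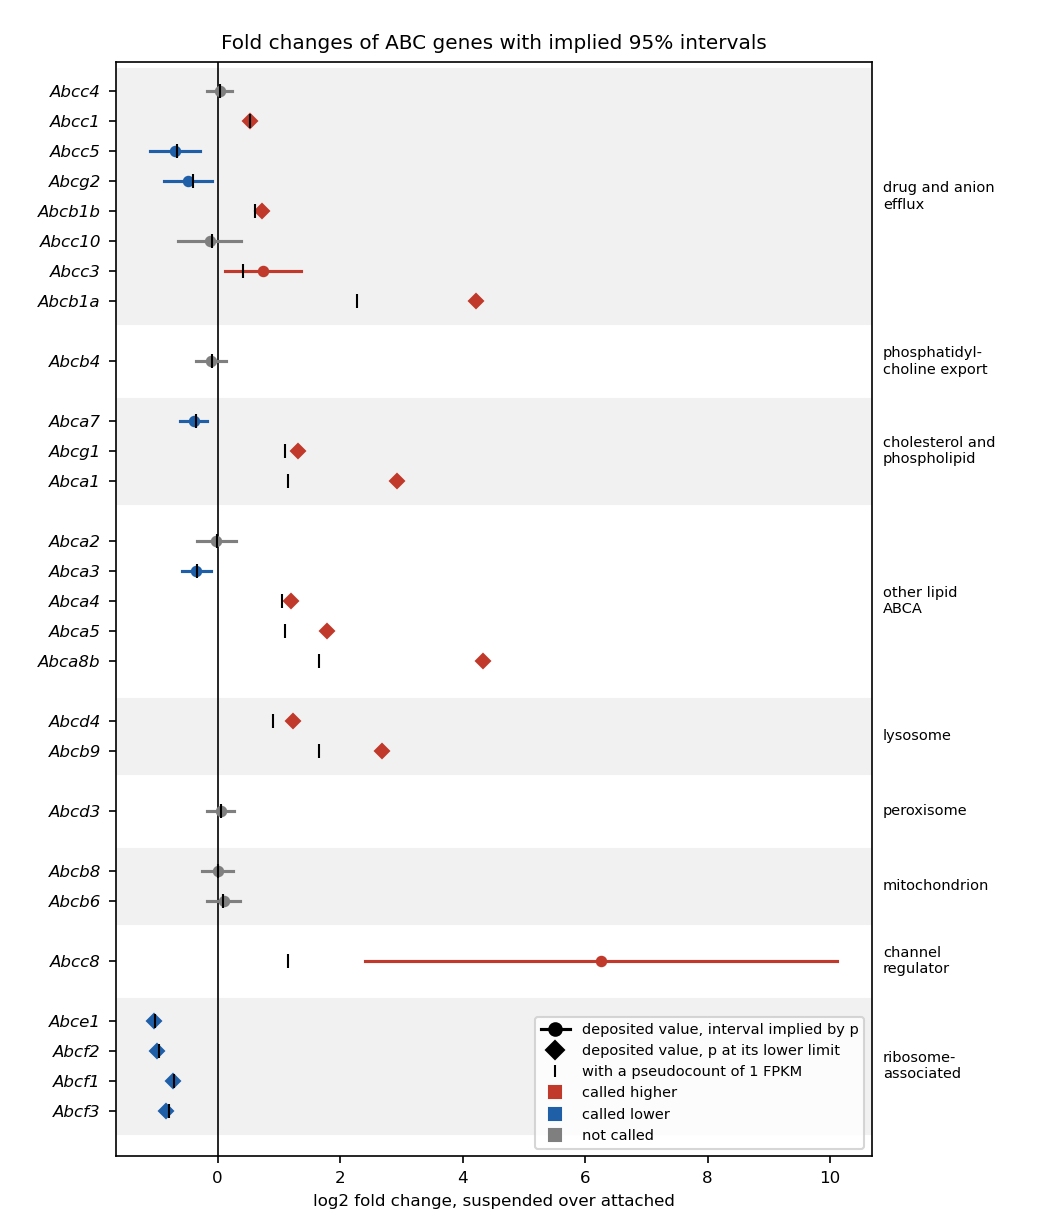
Log2 fold change (suspended over attached) of the same 27 genes from the authors' deposited table. Circles carry the 95% interval implied by the deposited p, diamonds have p at its lower limit of 5e-05 and no interval, and black ticks show the value with a pseudocount of 1 FPKM, which lies far left of the deposited one for Abcc8 (6.26 to 1.15) and hardly moves for Abce1 (-1.04 to -1.02).

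Abcb9 and Abcd4, grouped here for lysosomal transport of peptides and cobalamin, both rose. Abcb9 (TAPL, chromosome 5, positions 124061530 to 124095798), which carries peptides into lysosomes, went from 0.652 to 4.19 FPKM, or 6.43-fold (authors' deposited table). Abcd4 (chromosome 12, positions 84602531 to 84617466), which is needed for cobalamin to leave lysosomes, went from 1.87 to 4.38 FPKM, or 2.35-fold (authors' deposited table). Both started among the scarcer members and ended close to each other. With a pseudocount of 1 FPKM the log2 fold change of Abcb9 was 1.65 in place of 2.69.

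The closest relatives of Abcb9 are Tap1 and Tap2, ABC proteins with other symbols that carry peptides into the endoplasmic reticulum for MHC class I. Tap1 rose from 2.40 to 17.0 FPKM and Tap2 from 2.89 to 7.14 FPKM (q = 0.00171 for Tap2, authors' deposited table). Of the other genes of class I peptide loading, 5 of 11 tested were higher and 0 lower (0 at an unadjusted p under 0.05) in the authors' deposited table, with a median log2 fold change of 0.18. The shares over all tested rows were 24.7% higher and 26.3% lower. Tapbpl, a relative of tapasin, rose from 4.53 to 11.5 FPKM, and the class I heavy chain H2-K1 from 89.5 to 136 FPKM (authors' deposited table). The immunoproteasome subunits Psmb8 (0.629 to 3.36 FPKM, q = 0.00171) and Psmb9 (0.104 to 2.38 FPKM, q = 0.00863) also rose in the authors' deposited table. Psmb8 has the same deposited position as Tap2, and Psmb9 the same as Tap1. How fragments were divided within these pairs is not given in the sources used here, so their rises may not be separate results. The abundant chaperones of the pathway, Calr, Canx and Pdia3, were not called, and the lowest of their levels was 203 FPKM in the authors' deposited table.

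The peroxisomal member Abcd3 (PMP70, chromosome 3, positions 121758909 to 121815302), which imports branched and other acyl-CoAs, was not called, at 48.5 and 50.3 FPKM (q = 0.741, authors' deposited table), with an implied interval of 0.890 to 1.21 for the ratio. Abcd2 was not tested, at 0.0382 FPKM or less in the authors' deposited table. Of the genes for peroxisome biogenesis and beta-oxidation, 4 of 21 tested were higher and 5 lower in the authors' deposited table, with a median of -0.12. Of all tested rows, 24.7% were higher and 26.3% lower, so these counts do not set the list apart. Those called higher were Ehhadh (0.708 to 1.14 FPKM, q = 0.0115), Amacr (3.46 to 5.54), Pex16 (7.95 to 11.6, q = 0.0480) and Pex11a (6.29 to 9.11 FPKM, q = 0.00840), as listed in the authors' deposited table. Among those called lower were Pex26 (13.4 to 9.42 FPKM, q = 0.000355) and the more abundant beta-oxidation enzyme Hsd17b4 (90.3 to 64.9 FPKM), as listed in the authors' deposited table.

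The mitochondrial members Abcb8 and Abcb6 were not called. Abcb8 (chromosome 5, positions 24393663 to 24410054) stood at 17.4 and 17.5 FPKM (q = 0.982, authors' deposited table), with an implied interval of 0.842 to 1.20 for the ratio. Abcb6 (chromosome 1, positions 75171717 to 75180392), which has been linked to porphyrin transport, stood at 8.97 and 9.64 FPKM (q = 0.563, authors' deposited table), with an interval of 0.891 to 1.30. Abcb10 was not analysed here.

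Of the genes for haem and iron-sulfur cluster synthesis, 1 of 18 tested was higher and 6 lower in the authors' deposited table, where 24.7% of all tested rows were higher and 26.3% lower. The median log2 fold change of the list was -0.26, beside -0.04 over all tested rows. The higher gene was Alas1, the first enzyme of haem synthesis, at 24.5 and 30.8 FPKM (q = 0.0135, authors' deposited table). Slc25a37 (mitoferrin), the iron importer of mitochondria, fell from 28.0 to 6.66 FPKM, and the haem enzyme Cpox from 54.1 to 18.2 FPKM (authors' deposited table). The cluster assembly factors Isca1 and Isca2 fell from 17.5 to 13.2 (q = 0.00697) and from 31.7 to 23.7 FPKM (q = 0.0104, authors' deposited table). Mitochondrially encoded transcripts, a sign of RNA quality, went the other way, with rows summing to 31198 FPKM attached and 68368 suspended in the authors' deposited table; their part in the ABC results was not tested.

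The 4 members that act on ribosomes all fell, by similar amounts, and were the only role group in which every member was lower. Most other role groups held 3 tested members or fewer. All 4 had a mean above 5 FPKM, and of tested rows with a mean of 5 FPKM or more 34% were lower and 22.7% higher. Abce1 (chromosome 8, positions 79683442 to 79711740), which splits ribosomes for recycling, fell 2.05-fold, from 75.9 to 37.0 FPKM (authors' deposited table). Abcf2 (chromosome 5, positions 24565341 to 24577467) fell 1.97-fold, from 59.4 to 30.1 FPKM (authors' deposited table). Abcf3 (chromosome 16, positions 20548577 to 20561379) fell 1.79-fold, from 22.1 to 12.4 FPKM (authors' deposited table). Abcf1 (chromosome 17, positions 35956819 to 35969761), which binds the initiation factor eIF2, fell 1.66-fold, from 40.7 to 24.5 FPKM (authors' deposited table). Their summed level went from 198 to 104 FPKM, while that of all 49 members went from 642 to 585 FPKM (authors' deposited table). With calls also required to be at least 2-fold, Abce1 was the only one of the 4 left.

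Most partners of these proteins fell as well. Of the ribosome recycling and eIF2 list, 7 of 9 tested genes were lower and 0 higher (0 at an unadjusted p under 0.05) in the authors' deposited table, with a median log2 fold change of -0.77. For comparison, 26.3% of all tested rows were lower and 24.7% higher. Pelo, which works with Abce1 on stalled ribosomes, fell from 29.1 to 15.1 FPKM (authors' deposited table). The termination factor Gspt1 fell from 93.2 to 52.2 FPKM (authors' deposited table). Gcn1l1, a ribosome-bound activator of the eIF2 kinase GCN2, and Eif2ak4, which encodes that kinase, fell from 32.4 to 17.9 and from 11.9 to 6.72 FPKM (authors' deposited table). Eif2s3x and Etf1 were not called, at 72.3 and 67.9 FPKM (q = 0.502) and at 96.8 and 81.1 FPKM (q = 0.466, authors' deposited table).

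The sulfonylurea receptors regulate potassium channels in place of moving a substrate. Abcc8 (SUR1, chromosome 7, positions 46104523 to 46180033) went from 0.0165 to 1.26 FPKM (q = 0.00412, authors' deposited table). The fold of 76.7 rests on an attached value near 0, and the deposited p implies a 95% interval of 5.30 to 1108 for it. Kcnj11, the channel subunit that pairs with it and its neighbour on the chromosome, stood at 0.0283 and 6.23 FPKM without being called (q = 0.203, authors' deposited table). Abcc9 and its partner Kcnj8 were not tested, at 0.0147 FPKM or less in the authors' deposited table.

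Cftr, the ABC protein that is a chloride channel, fell from 1.58 to 0.580 FPKM (authors' deposited table). A list of scaffolds, cytoskeletal linkers and trafficking partners of Cftr and efflux pumps had 4 of 6 tested genes lower in the authors' deposited table. None was higher (0 at an unadjusted p under 0.05), and the median was -0.41. Of all tested rows, 26.3% were lower and 24.7% higher. Slc9a3r2 (10.1 to 5.50 FPKM), Rdx (57.5 to 41.7), Msn (357 to 265, q = 0.000355) and Slc9a3r1 (142 to 108 FPKM, q = 0.000355) fell in the authors' deposited table.

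**Figure D3:**
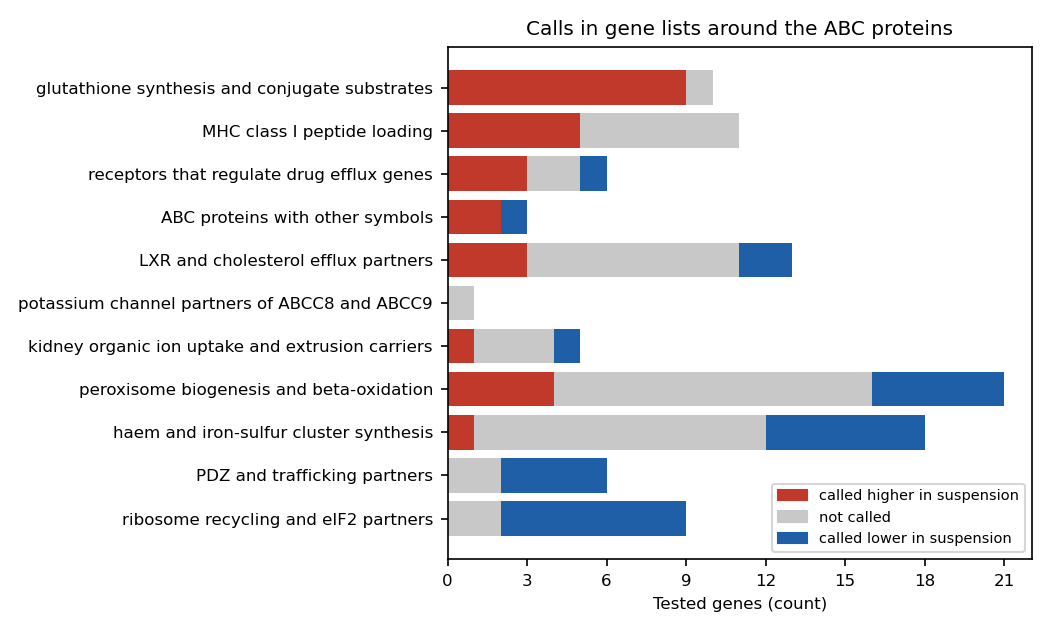
Count of tested genes called higher (red), not called (grey) or called lower (blue) in suspension for each list around the ABC proteins, from the authors' deposited table. Genes of the glutathione list, which counts Nqo1, were higher in 9 of 10 cases and ribosome recycling and eIF2 genes lower in 7 of 9.

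The other 20 members lay under 1 FPKM in both conditions, and Abcc2 was the only one of them that was tested. Their attached values were at most 0.0943 FPKM (Abcg3) and, Abcc2 aside, no value exceeded 0.234 FPKM (Abca12, suspended) in the authors' deposited table. Of the 20, 14 had the larger value in suspension, 4 in attached cells, and 2 (Abcg8 and Abca15) were listed at 0 in both conditions of the authors' deposited table. They include the bile salt pump Abcb11, the intestinal and hepatic sterol exporters Abcg5 and Abcg8, the testis genes Abca14 to Abca17 and the keratinocyte lipid transporter Abca12. Abcg5 and Abcg8 share exon bases on opposite strands and 1 deposited position.

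**Figure D4:**
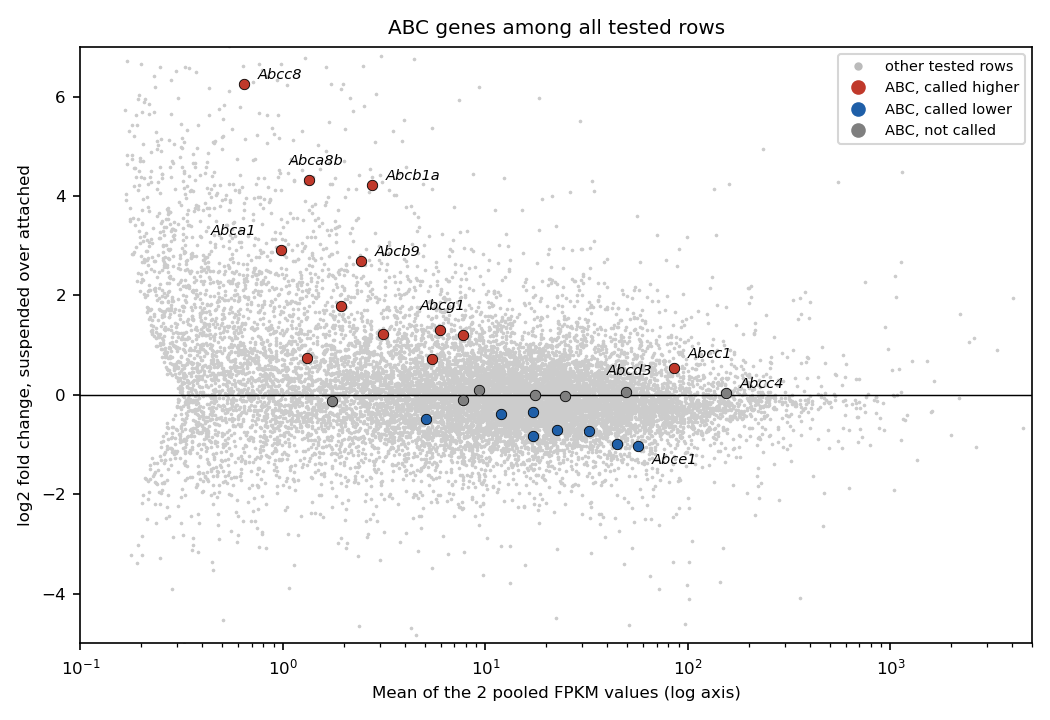
Log2 fold change (suspended over attached) against the mean of the pooled FPKM values on a log axis, for tested rows above 0 in both conditions (grey; a few lie outside the axes) and 27 of the 29 ABC genes coloured by call, from the authors' deposited table. The 8 ABC genes called higher with a mean under 5 FPKM lie above 0, and every lower call drawn lies at a mean of 5 FPKM or more.

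The cells were checked against markers of kidney cells. All 7 tubule epithelium markers were above 30 FPKM in both conditions of the authors' deposited table, 2 of them called higher, 4 lower and 1 not called in suspension. Of 5 proximal tubule markers, Slc34a1 and Slc5a2 were listed at 0 in both conditions and Lrp2 was not tested, at 0.0709 and 0.112 FPKM (authors' deposited table). The other two were called in opposite directions, Aqp1 lower (79.1 to 11.8 FPKM) and Cubn higher (0.491 to 0.904 FPKM, q = 0.000518), as listed in the authors' deposited table. Endothelial markers summed to at most 0.353 FPKM in either condition, fibroblast markers to 0.225 and 1.93 FPKM, and podocyte markers to 4.13 and 20.5 FPKM, with the defining podocyte gene Nphs1 at 0.00427 FPKM or less, in the authors' deposited table.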

How the data were processed

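Messenger RNA of 6 libraries was purified and read on an Illumina sequencer, per the labels' protocols. The submitters' processing notes list mm10 as the build and, as tools, Cuffdiff, Cufflinks 1.0.3, Bowtie and TopHat. The settings used with them are not given there. The deposited FPKM are 1 pooled value per condition, so depth is unknown. The authors' comparison also gave the deposited q-value and p-value, a score of the test and a log2 fold change. No test across genes was added. Calls are q below 0.05, and p goes no lower than 5e-05.

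Positions were written counting from 1. The implied standard error is the log2 fold change over the normal quantile of p, given only where p is above its floor; it is a rough value. Members, roles and lists were chosen with earlier results of these data known. The text names members of at least 1 FPKM in either condition (27 of 29, the others being counted but not reported here), called members below it, Tap1, Tap2, Cftr, and up to 4 called genes per list. Gclc and Slc7a11 fall under the rule but are not repeated, and others named were chosen after their values were seen. Of 153 listed symbols 4 were not matched, and all 49 members overlapped their GENCODE M21 position. The code for adjusted p-values and implied standard errors was run on simulated data with normal p-values. That simulation cannot show how well the implied intervals hold for the deposited p. Python 3.11.15, NumPy 2.4.6, SciPy 1.17.1, pandas 2.3.3, Biopython 1.88 and matplotlib 3.10.9 were used.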

Additional observations from a re-analysis of the deposited data

How the results depend on the processing

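With q below 0.01, a Benjamini-Hochberg adjustment recomputed from the deposited p, or a minimum of 1 FPKM, the counts of members called stayed within 1.5 times of 22 in all, 13 higher and 9 lower. With calls also at least 2-fold, 12 members were called, 2 of them lower, and 18 listed pathway genes in place of 55. With at least 5 FPKM in either condition, 14 members were called, 5 of them higher. A pseudocount of 1 FPKM shrank the log2 fold change of 7 called members by over 1.5 times (Abca1, Abca5, Abca8b, Abcb1a, Abcb9, Abcc3 and Abcc8), and a pseudocount of 0.1 FPKM that of 1, Abcc8. No sign changed under either. No paired analysis was possible because the table holds 1 pooled value per condition. Leaving out a replicate, another test and another normalization were not run for the same reason, and protein motifs and identities were not analysed here.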
